A study of Arabidopsis thaliana with 21 samples.

Results

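The plastid genome of Arabidopsis thaliana encodes a part of the machinery of photosynthesis and, beside it, genes for making plastid RNA and protein and a few with other tasks. The genes described here are those of the plastid genome whose symbol does not start with psa, psb, pet, atp, ndh or rbc, the prefixes of its photosynthesis genes. Of the protein-coding genes of this kind in the reference annotation (TAIR10.1), 26 had a probe set on the array that named the gene alone. They are 26 of the 13286 genes that a probe set named alone and that were found in the reference. The 26 comprised 4 RNA polymerase genes (rpoA, rpoB, rpoC1 and rpoC2), 8 genes of the small ribosomal subunit (rps2, rps3, rps4, rps14, rps15, rps16, rps18 and rps19), 7 genes of the large ribosomal subunit (rpl14, rpl16, rpl20, rpl22, rpl32, rpl33 and rpl36) and 7 others (matK, clpP, accD, ccsA, cemA, ycf3 and ycf4). Each had 1 probe set. Another 6 symbols (rpl2, rpl23, rps7, rps12, ycf1 and ycf2) were named only by probe sets that name several gene entries and are not among the 26. Their probe sets reported at the end each name 2 entries of the same gene.

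Plastid genes are read by a bacterial-type RNA polymerase, whose core subunits are the products of the rpo genes, and by phage-type polymerases encoded in the nucleus, which transcribe among others the rpoB operon and accD. The plastid ribosome is also of the bacterial type, and the genes of its proteins are divided between the plastid and the nuclear genome. Many plastid genes lie in clusters that are transcribed together into long RNAs, which nuclear-encoded RNA-binding proteins then cut, splice, edit and protect. In the hypocotyl, the stem between root and seed leaves, green plastids lie mainly in the outer tissues.

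Transcript levels were measured on 21 Affymetrix ATH1 arrays, 3 for each of 7 groups, in hypocotyls of plants 2 weeks old, harvested 24 h after treatment. Wild-type Col-0 plants were kept intact, were decapitated by removal of the shoot tip, were decapitated and given IAA (indole-3-acetic acid, the main natural auxin) at 3 mg/mL, or kept the tip and were given NPA, which blocks the directed transport of auxin from cell to cell, likewise at 3 mg/mL. Mutants of the MAX1, MAX2 and MAX3 genes, known for more branches than the wild type, were treated with lanolin alone. MAX1 and MAX3 are enzymes of strigolactone synthesis, and MAX2 is an F-box protein of the strigolactone and karrikin response. The lanolin held under 10% ethanol and was applied in every group, controls included. Each array held RNA pooled from 120 to 150 hypocotyls. The labels do not give the alleles of the mutants. The controls of all treatments and mutants were the same 3 intact arrays, so comparisons with intact plants share them. In whole hypocotyls a change in the number of cells, plastids or plastid genome copies cannot be told apart from a change in transcript per plastid genome.

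All values are on the deposited log2 scale, and array values are listed in the order of replicates 1, 2 and 3. Array medians lay between 6.11 and 6.35, and precision is limited by having 3 arrays in a group. Differences are log2 differences between group means, ± gives the standard error of the linear model (limma), and a gene is said to rise or fall where the p adjusted over all 22746 probe sets was below 0.05. Most plastid messages lack the long poly(A) tail from which the standard labelling of such arrays starts, and the labels do not name the primer used. The values are therefore compared for one probe set across arrays and not between genes. Of the 26 genes 24 lay above 3.5 in every array. The signal for rps14 was between 2.12 and 2.40 throughout, in the range below 3.5 where values pile up near background, so that no change of this gene could be measured, and that of rpoB ranged from 2.80 to 5.01.

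The comparison of decapitated with intact plants asks what happens below a removed shoot tip, the main source of auxin for the stem. After decapitation 19 of the 26 genes rose and 0 fell, with a median difference of 1.07 over the 26. Over the whole array 12.8% of probe sets rose, or 18.3% of those with a mean of 3.5 or more. In 23 of the 26 genes all decapitated arrays lay above all intact arrays, against 17.4% of all probe sets. Subtracting each array's median moved the median difference of all probe sets from 0.03 to 0.14, and then 24 of the 26 genes and 39.2% of all probe sets rose, while 12.2% of all probe sets fell, against 13.4% without it. The genes that rose included all 4 polymerase genes, 6 of 8 small-subunit and 6 of 7 large-subunit genes, matK, clpP and ccsA. The 7 that did not pass were rpl20, rps14, rps15, accD, cemA, ycf3 and ycf4. Of these, cemA, ycf3 and ycf4 passed when the replicate number, which marks plants treated at the same time, entered the model as a block (adjusted p = 0.00693, 0.0399 and 0.00962).

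**Figure D1:**
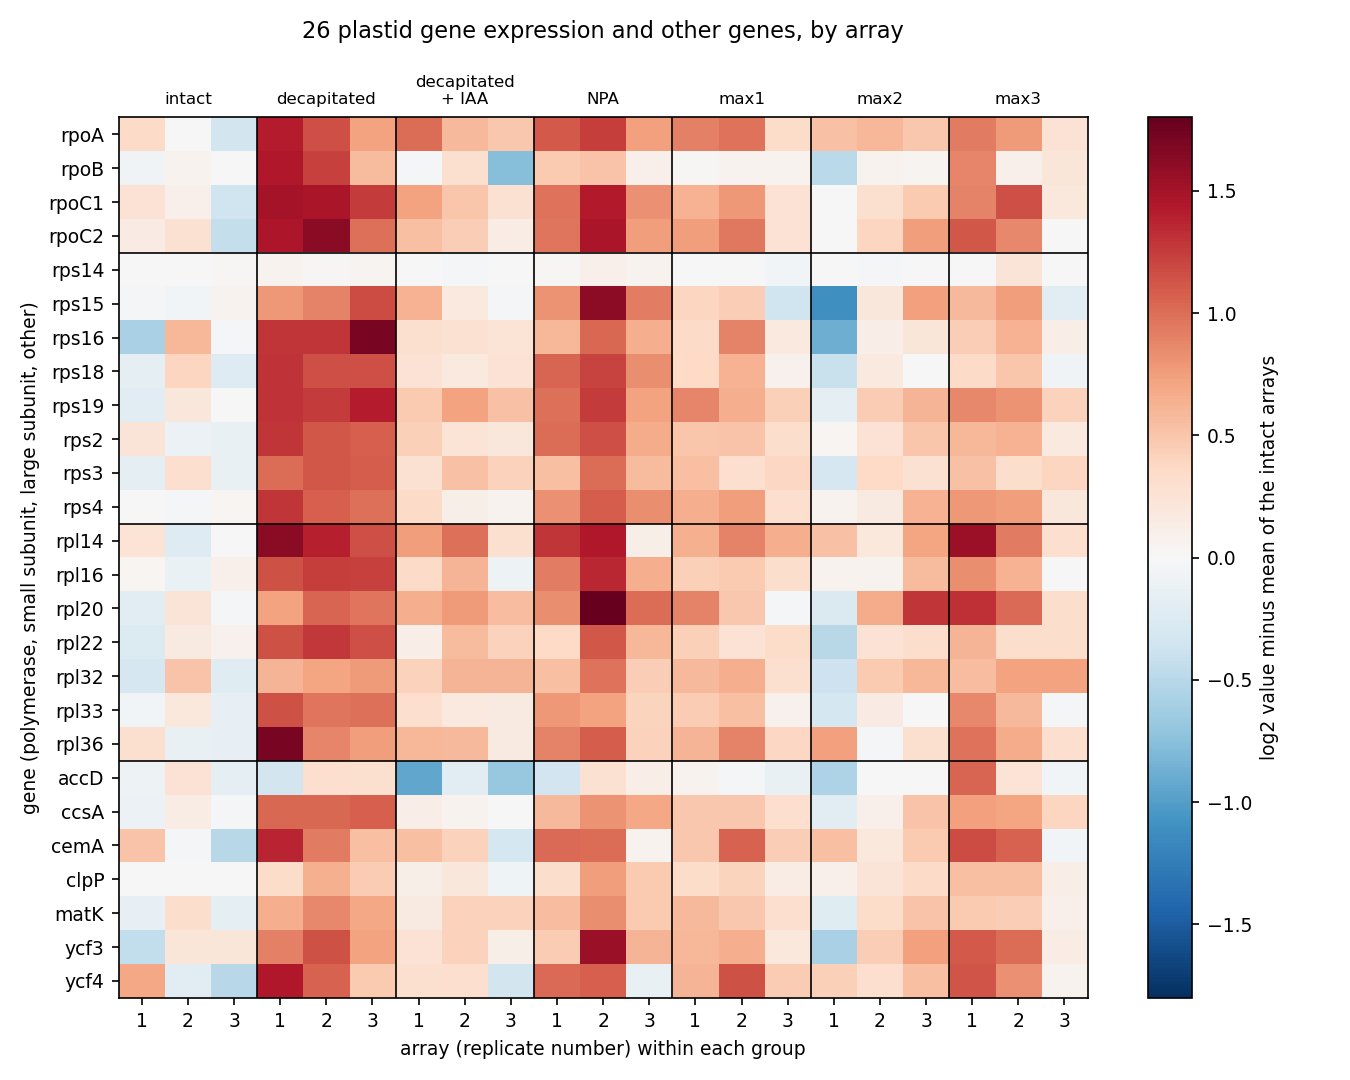
Log2 value of each of the 26 genes (rows, grouped into polymerase, small subunit, large subunit and other genes) in each of the 21 arrays (columns, by group and replicate number), minus the mean of the 3 intact arrays; red is higher and blue lower. The decapitated columns are the darkest red for most genes, the median over genes being 1.21, 1.09 and 0.99 in the 3 arrays, while rps14 and accD stay pale there.

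The 4 subunit genes of the bacterial-type polymerase were among those with clear shifts. For rpoC1, which encodes the beta' subunit, the intact arrays read 10.52, 10.35 and 9.90, the decapitated arrays 11.76, 11.72 and 11.52, those with IAA 10.98, 10.75 and 10.53 and those with NPA 11.24, 11.68 and 11.08. Every decapitated array lay above every intact array and every IAA array, and the IAA arrays did not overlap the intact ones. The gene rose by 1.41 ± 0.24 after decapitation (adjusted p = 3.4e-04), a 2.66-fold difference, and fell with IAA relative to decapitation (-0.91 ± 0.24, adjusted p = 0.0119), a call that was lost without IAA replicate 3 (-0.80, adjusted p = 0.0555). It also rose with NPA (1.08 ± 0.24, adjusted p = 0.00303).

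Its neighbour rpoC2, for the beta'' subunit, had intact values of 9.18, 9.31 and 8.61, decapitated values of 10.49, 10.66 and 10.02, IAA values of 9.58, 9.48 and 9.17 and NPA values of 9.99, 10.50 and 9.79. Decapitated and NPA arrays were above all intact arrays, and the IAA arrays overlapped the intact ones. The gene rose by 1.35 ± 0.30 after decapitation and by 1.06 ± 0.30 with NPA, and differed by -0.98 ± 0.30 between IAA and decapitation (adjusted p = 0.00323, 0.0165 and 0.0304). The fall with IAA no longer passed without decapitated replicate 1 or 2 or IAA replicate 2 or 3 (-1.01 to -0.84). The rise with NPA was lost without intact replicate 3 (0.84) or NPA replicate 2 (0.85).

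The probe set of rpoB, for the beta subunit, was dim. It read 3.51, 3.64 and 3.57 in intact, 5.01, 4.81 and 4.14 in decapitated, 3.55, 3.86 and 2.80 in IAA and 4.05, 4.09 and 3.66 in NPA arrays. The decapitated arrays stood above all other wild-type arrays, and IAA replicate 3 was the lowest of the 21. The rise after decapitation was 1.08 ± 0.27 (adjusted p = 0.0073) and the fall with IAA -1.25 ± 0.27 (adjusted p = 0.00336), while NPA differed from intact by 0.36 ± 0.27 (adjusted p = 0.329). Several of these values are near the background range, which limits how well the size of the differences is known.

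The alpha subunit gene rpoA lies in another cluster, with ribosomal protein genes. Intact arrays read 11.77, 11.42 and 11.10, decapitated arrays 12.85, 12.59 and 12.16, IAA arrays 12.44, 12.01 and 11.91 and NPA arrays 12.53, 12.67 and 12.17. All 3 treatments lay above all intact arrays, and IAA overlapped decapitation. The rise was 1.11 ± 0.24 after decapitation and 1.03 ± 0.24 with NPA (adjusted p = 0.0023 and 0.00394), and the difference between IAA and decapitation was -0.41 ± 0.24 (adjusted p = 0.206). In each of the 7 groups the replicate 3 array was the lowest. With the replicate block rpoA passed in 6 further comparisons, among them IAA against decapitation (adjusted p = 0.0252) and IAA against intact (0.69 ± 0.24 in the main fit, adjusted p = 0.0921, and 0.00268 with the block).

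**Figure D2:**
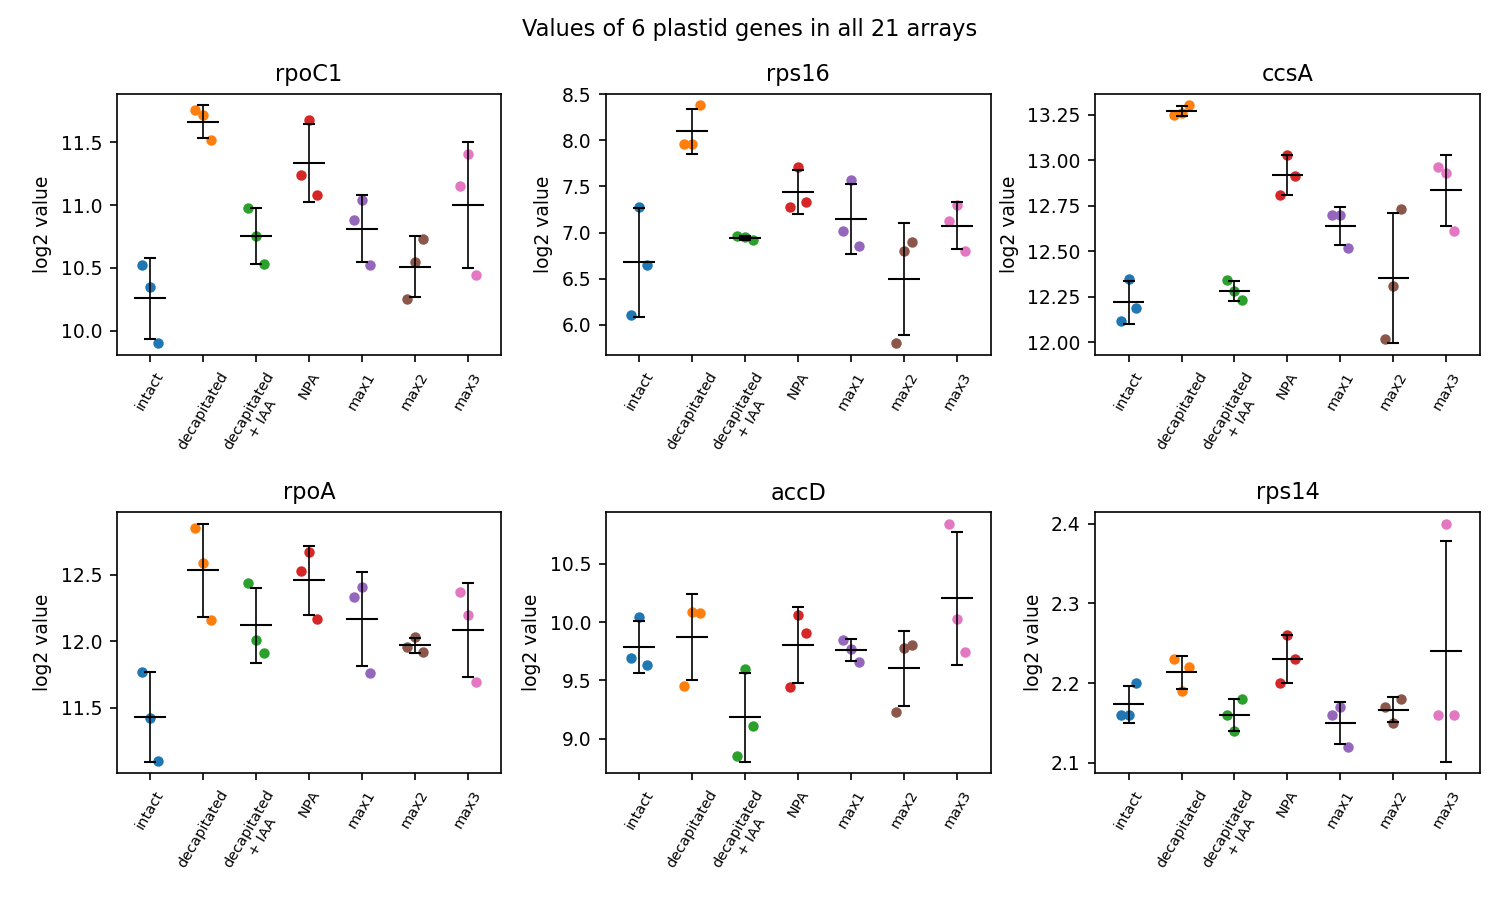
Log2 values of 6 genes in all 21 arrays (dots, 1 per array, in the order of replicates), with group means and SD (bars, 3 arrays each). The decapitated arrays of rpoC1, rps16 and ccsA lie above all intact and IAA arrays, accD shows overlap of decapitated and intact arrays, and rps14 stays between 2.12 and 2.40.

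Among the small-subunit ribosomal protein genes, whose products sit in the part of the ribosome that reads the message, 6 of 8 rose after decapitation, 6 fell with IAA and 6 rose with NPA. Over all probe sets 12.8% rose after decapitation, 11.9% fell with IAA and 13.9% rose with NPA. The 8 had a median difference of 1.14 after decapitation. The largest was that of rps16, with intact values of 6.10, 7.28 and 6.65, decapitated values of 7.96, 7.96 and 8.38, IAA values of 6.96, 6.95 and 6.92 and NPA values of 7.28, 7.71 and 7.33. The decapitated arrays did not overlap any other wild-type array, and the intact arrays were spread over more than 1 log2 unit. The rise was 1.42 ± 0.30 (adjusted p = 0.00222), or 2.68-fold, the fall with IAA -1.16 ± 0.30 (adjusted p = 0.0116), and the difference with NPA 0.76 ± 0.30 (adjusted p = 0.0749, and 0.0353 with the replicate block).

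The second largest was rps19, at 11.47, 11.87 and 11.66 in intact, 12.97, 12.93 and 13.08 in decapitated, 12.14, 12.39 and 12.20 in IAA and 12.66, 12.93 and 12.39 in NPA arrays. Here the IAA arrays lay between intact and decapitated arrays without overlapping either. Decapitation raised it by 1.33 ± 0.19 (adjusted p = 7.3e-05), IAA lowered it by a difference of -0.75 ± 0.19 (adjusted p = 0.00961), and IAA and intact plants differed by 0.58 ± 0.19 (adjusted p = 0.0789).

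For rps18 the intact arrays read 11.29, 11.85 and 11.23, the decapitated 12.76, 12.62 and 12.61, the IAA 11.72, 11.63 and 11.71 and the NPA arrays 12.51, 12.68 and 12.30. IAA and intact arrays overlapped, and decapitated and NPA arrays were above both. It rose by 1.21 ± 0.19 with decapitation (adjusted p = 1.8e-04) and by 1.04 ± 0.19 with NPA (adjusted p = 6.8e-04) and fell with IAA (-0.98 ± 0.19, adjusted p = 0.00143).

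The rps15 probe set read 8.56, 8.53 and 8.65 in intact, 9.36, 9.47 and 9.76 in decapitated, 9.20, 8.75 and 8.56 in IAA and 9.39, 10.19 and 9.50 in NPA arrays. Decapitated and NPA arrays lay above all intact arrays although only the NPA difference passed (1.11 ± 0.39, adjusted p = 0.0448, against 0.94 ± 0.39, adjusted p = 0.0924, for decapitation). That call was lost without any single intact array and without NPA replicate 2 or 3 (0.86 to 1.21). The remaining rps2, rps3 and rps4 had group means from 9.84 to 12.59 in intact and from 11.00 to 13.68 in decapitated plants, and all 3 rose after decapitation (1.07 to 1.16), fell with IAA (-0.94 to -0.66) and rose with NPA (0.70 to 0.95). For rps14 the intact arrays read 2.16, 2.16 and 2.20, the decapitated 2.23, 2.19 and 2.22, the IAA 2.16, 2.14 and 2.18 and the NPA arrays 2.20, 2.26 and 2.23, all at the lower end of the scale.

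Of the large-subunit genes, whose products belong to the part of the ribosome that joins amino acids, 6 of 7 rose after decapitation, 3 fell with IAA and 6 rose with NPA. The shares of all probe sets were again 12.8%, 11.9% and 13.9%. The median over the 7 was 1.11 after decapitation and -0.72 for IAA against decapitation. The gene with the largest rise, rpl14, read 8.21, 7.73 and 7.95 in intact, 9.59, 9.36 and 9.13 in decapitated, 8.71, 8.95 and 8.25 in IAA and 9.25, 9.40 and 8.07 in NPA arrays. All decapitated and all IAA arrays were above all intact arrays, and NPA replicate 3 lay among the intact arrays, far below the other 2. The rise was 1.40 ± 0.33 (adjusted p = 0.00494), the difference between IAA and decapitation -0.72 ± 0.33 (adjusted p = 0.124), and the rise with NPA 0.94 ± 0.33 (adjusted p = 0.0463). The NPA call was lost without any single intact array and without NPA replicate 1 or 2 (0.70 to 1.07).

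The neighbouring rpl16 had intact values of 9.18, 9.03 and 9.24, decapitated values of 10.30, 10.40 and 10.38, IAA values of 9.49, 9.76 and 9.06 and NPA values of 10.07, 10.51 and 9.81. Decapitated and NPA arrays stood above all intact and IAA arrays. It rose after decapitation (1.21 ± 0.22, adjusted p = 6.3e-04) and with NPA (0.98 ± 0.22, adjusted p = 0.00332) and fell with IAA (-0.92 ± 0.22, adjusted p = 0.00642). The same directions held for rpl22, at 11.71, 12.12 and 12.04 in intact, 13.10, 13.23 and 13.12 in decapitated, 12.07, 12.53 and 12.37 in IAA and 12.31, 13.08 and 12.55 in NPA arrays. Its decapitated arrays were close to each other and above every other array. The rise was 1.19 ± 0.21 (adjusted p = 4.8e-04), the fall with IAA -0.83 ± 0.21 (adjusted p = 0.00973), and the rise with NPA 0.69 ± 0.21 (adjusted p = 0.0233). The NPA call of rpl22 was lost without intact replicate 1 (0.57) or NPA replicate 2 (0.48).

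The smallest difference among the large-subunit genes was that of rpl32, with 11.74, 12.56 and 11.82 in intact, 12.65, 12.75 and 12.80 in decapitated, 12.45, 12.65 and 12.65 in IAA and 12.58, 13.02 and 12.48 in NPA arrays. Intact replicate 2 lay among the IAA and NPA arrays and above intact replicates 1 and 3. The rise after decapitation (0.70 ± 0.24, adjusted p = 0.0409) was lost without intact replicate 1 or 3 and without any single decapitated array (0.55 to 0.74), and the difference between IAA and decapitation was -0.15 ± 0.24 (adjusted p = 0.64). For rpl20, the intact arrays read 7.19, 7.61 and 7.34, the decapitated 8.10, 8.43 and 8.34, the IAA 8.04, 8.14 and 7.93 and the NPA arrays 8.22, 9.33 and 8.38. All treated arrays lay above the intact arrays, with NPA replicate 2 the highest of the 21. Only the NPA difference passed (1.27 ± 0.37, adjusted p = 0.0178, against 0.91 ± 0.37, adjusted p = 0.0882, for decapitation), and it was lost without intact replicate 1 or NPA replicate 2 (1.17 and 0.92). The other 2 genes, rpl33 and rpl36, rose after decapitation (1.04 ± 0.19 and 1.11 ± 0.27) and with NPA (0.64 ± 0.19 and 0.80 ± 0.27), and rpl33 also fell with IAA (-0.82 ± 0.19, adjusted p = 0.00552). The NPA call of rpl33 was lost without intact replicate 1 or 3 or NPA replicate 1 or 2 (0.57 to 0.61). That of rpl36 was lost without intact replicate 2 or 3 or NPA replicate 1 or 2 (0.66 to 0.75).

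The 7 other genes did not move alike. The gene ccsA encodes a protein of the thylakoid membrane that attaches haem to c-type cytochromes. Its intact arrays read 12.12, 12.35 and 12.19, the decapitated 13.25, 13.26 and 13.30, the IAA 12.34, 12.28 and 12.23 and the NPA arrays 12.81, 13.03 and 12.91. The decapitated arrays were above all other arrays of the study, and the IAA arrays overlapped the intact arrays. It rose 2.07-fold after decapitation (1.05 ± 0.14, adjusted p = 2.7e-05), the smallest adjusted p of the 26 genes, fell back with IAA (-0.99 ± 0.14, adjusted p = 6.4e-05) and rose with NPA (0.70 ± 0.14, adjusted p = 0.00107).

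The maturase gene matK, whose product serves the splicing of plastid introns, read 12.74, 13.21 and 12.72 in intact, 13.54, 13.75 and 13.59 in decapitated, 13.05, 13.31 and 13.31 in IAA and 13.44, 13.72 and 13.36 in NPA arrays. Decapitated and NPA arrays were above all intact arrays. It rose by 0.74 ± 0.18 after decapitation (adjusted p = 0.00572) and by 0.62 ± 0.18 with NPA (adjusted p = 0.0174), and differed by -0.40 ± 0.18 between IAA and decapitation (adjusted p = 0.112). The NPA call was lost without intact replicate 1 or 3 or NPA replicate 2 (0.51 to 0.54).

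The gene clpP encodes a proteolytic subunit of the Clp protease of the plastid stroma. It read 12.57, 12.58 and 12.57 in intact, 12.91, 13.21 and 13.03 in decapitated, 12.68, 12.78 and 12.49 in IAA and 12.89, 13.32 and 13.04 in NPA arrays. The intact arrays were almost equal, and the decapitated and NPA arrays lay above them. The rise was 0.48 ± 0.13 after decapitation (adjusted p = 0.0119), lost without decapitated replicate 2 (0.40, adjusted p = 0.0573), and 0.51 ± 0.13 with NPA (adjusted p = 0.00775). With IAA it differed from decapitation by -0.40 ± 0.13 (adjusted p = 0.0368), a call lost without decapitated replicate 2 or 3 or IAA replicate 1 or 3 (-0.42 to -0.32).

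No rise was measured for accD, which encodes a subunit of the acetyl-CoA carboxylase that starts fatty acid synthesis in plastids. The intact arrays read 9.69, 10.04 and 9.63, the decapitated 9.45, 10.09 and 10.08, the IAA 8.85, 9.60 and 9.11 and the NPA arrays 9.44, 10.06 and 9.91. Decapitated and NPA arrays overlapped the intact arrays, and all IAA arrays lay below them. The difference was 0.09 ± 0.28 for decapitation (adjusted p = 0.833), 0.02 ± 0.28 for NPA (adjusted p = 0.97), -0.69 ± 0.28 for IAA against decapitation (adjusted p = 0.0848) and -0.60 ± 0.28 for IAA against intact (adjusted p = 0.247).

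The genes ycf3 and ycf4 encode factors for the assembly of photosystem I, and cemA a protein of the inner envelope membrane. For cemA the arrays read 11.00, 10.46 and 9.99 in intact, 11.85, 11.42 and 11.03 in decapitated, 11.03, 10.90 and 10.17 in IAA and 11.50, 11.49 and 10.54 in NPA plants. In each of these groups the replicate 3 array was the lowest. The difference was 0.95 ± 0.37 after decapitation (adjusted p = 0.0748), -0.73 ± 0.37 for IAA against decapitation (adjusted p = 0.156, and 0.0342 with the replicate block) and 0.70 ± 0.37 with NPA (adjusted p = 0.17, and 0.0376 with the block). Its neighbour ycf4 had intact values of 9.87, 8.98 and 8.67, decapitated values of 10.61, 10.23 and 9.65, IAA values of 9.46, 9.48 and 8.84 and NPA values of 10.19, 10.25 and 9.04. Intact replicate 1 lay above decapitated replicate 3, and replicate 3 was again the lowest of each group. The differences were 0.99 ± 0.39 for decapitation, -0.90 ± 0.39 for IAA against decapitation and 0.65 ± 0.39 for NPA (adjusted p = 0.0745, 0.0999 and 0.213), and the difference between IAA and decapitation passed with the block (adjusted p = 0.0192). The ycf3 arrays read 6.95, 7.61 and 7.61 in intact, 8.30, 8.54 and 8.11 in decapitated, 7.65, 7.80 and 7.50 in IAA and 7.85, 8.95 and 8.00 in NPA plants. Decapitated and NPA arrays were above all intact arrays. The difference was 0.93 ± 0.35 after decapitation (adjusted p = 0.0683), -0.66 ± 0.35 for IAA against decapitation (adjusted p = 0.174) and 0.88 ± 0.35 with NPA (adjusted p = 0.0771, and 0.0482 with the block).

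**Figure D3:**
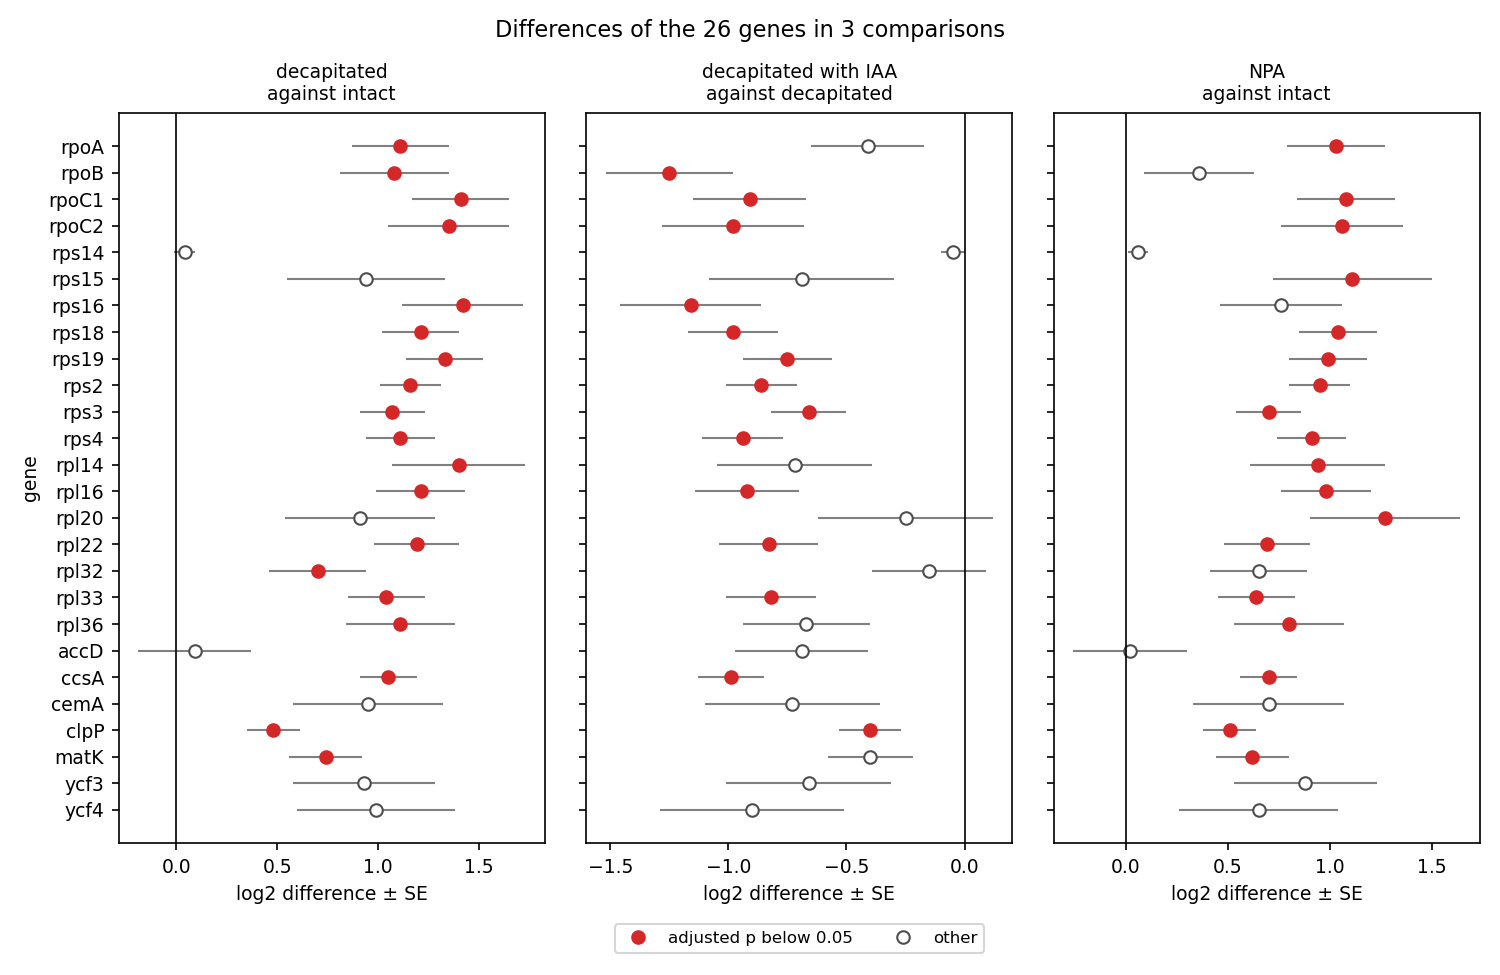
Log2 difference and its standard error for each of the 26 genes in decapitated against intact, decapitated with IAA against decapitated, and NPA against intact plants (3 arrays a group); filled dots have an adjusted p below 0.05. There are 19, 14 and 18 filled dots, all 19 and 18 above 0 and all 14 below 0.

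Adding IAA to decapitated plants asks whether auxin replaces the tip. With IAA 14 of the 26 genes fell relative to decapitation and 0 rose, with a median of -0.74, while 11.9% of all probe sets fell and 11.0% rose. With array medians subtracted 16 genes fell, while 21.3% of all probe sets fell and 9.63% rose. The 14 were rpoB, rpoC1, rpoC2, rps2, rps3, rps4, rps16, rps18, rps19, rpl16, rpl22, rpl33, ccsA and clpP, and all 14 had risen after decapitation. Both comparisons use the decapitated arrays. With the replicate block rpl36, cemA, ycf4 and rpoA passed as well, rpl36 with an adjusted p of 0.019. Between IAA-treated decapitated and intact plants 0 of the 26 genes passed with limma, 5 had an unadjusted p below 0.05 (20.0% of all probe sets had), and the median was 0.28, with 8.67% of all probe sets called in either direction. In that comparison rpoA passed once the limma model held the replicate block (0.69 ± 0.13, adjusted p = 0.00268). In group means, 23 of the 26 genes had decapitated plants above IAA plants and IAA plants above intact plants, and the exceptions were rpoB, accD and rps14, where IAA plants had the lowest of the 3 means.

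Polar auxin transport was blocked with NPA in plants that kept their tip. Of the 26 genes 18 rose relative to intact plants and 0 fell, with a median of 0.78, against 13.9% of all probe sets that rose and 13.9% that fell. Of these, 16 also rose after decapitation, in a comparison that shares the intact arrays, while rpl32, rpoB and rps16 passed after decapitation only and rpl20 and rps15 with NPA only. In the direct comparison of NPA with decapitation 0 genes passed with limma, 5 had an unadjusted p below 0.05 (13.4% of all probe sets had), the median was -0.24, and 2.35% of all probe sets were called in either direction. NPA replicate 2 was the highest of the 3 NPA arrays over the 26 genes, with a median of 1.09 above the intact mean against 0.82 and 0.61 in replicates 1 and 3. Without it 10 genes rose. The 8 calls lost then were those of rpl14, rpl20, rpl22, rpl33, rpl36, matK, rpoC2 and rps15, with differences of 0.48 (rpl22) to 0.92 (rpl20). Without intact replicate 1 or without intact replicate 3 the count was 12. With the replicate block rpl32 (adjusted p = 0.0212), cemA, ycf3 and rps16 passed too. When the model held only the NPA and intact arrays, 11 genes rose. The share of all probe sets called was not counted for these fits with fewer arrays or for the block. With array medians subtracted 22 rose, while 44.2% of all probe sets rose and 12.5% fell.

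NPA plants had higher group means than IAA-treated decapitated plants for all 26 genes, and for 14922 of all 22746 probe sets. The difference passed for 6 genes, rpl16, ccsA, clpP, rps2, rps4 and rps18 (0.43 to 0.81), while 22.0% of all probe sets were higher in NPA, so that the share of these genes was near that of the array. The calls of rpl16 and clpP were lost without NPA replicate 2 (0.50 and 0.32) or IAA replicate 3 (0.50 and 0.36), and that of rpl16 also without IAA replicate 1 (0.72). With the replicate block rpoA, rpoC1 and rpoC2 passed as well (adjusted p = 0.0491, 0.0283 and 0.0388), and with array medians subtracted 13 genes passed, while 42% of all probe sets were higher and 11.9% lower. In group means, decapitated plants were highest of all 7 groups for 21 genes, NPA plants for 3 (rpl20, clpP and rps15) and max3 plants for 2 (accD and rps14). Intact wild-type plants were lowest for 19 genes.

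The max mutants were compared with intact wild-type plants to ask how strigolactone synthesis and response bear on the hypocotyl. In max1 0 of the 26 genes passed with limma and 13 had an unadjusted p below 0.05, in max2 0 passed and 1 had, and in max3 1 gene, ccsA, rose and 15 had an unadjusted p below 0.05. The medians over the 26 were 0.45, 0.23 and 0.53. Of all probe sets 3.74% were called in either direction in max1, 3.12% in max2, and 0.998% were higher in max3. An unadjusted p below 0.05 was found for 15.8% of all probe sets in max1, 12.1% in max2 and 13.8% in max3. The rise of ccsA in max3 was 0.61 ± 0.14 (adjusted p = 0.0324). It was lost without any single intact array and without max3 replicate 1 or 2 (0.55 to 0.68), while without max3 replicate 3 rpl33, clpP, rpoC1 and rps4 passed beside it.

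For ccsA the max1 arrays read 12.70, 12.70 and 12.52, the max2 arrays 12.02, 12.31 and 12.73 and the max3 arrays 12.96, 12.93 and 12.61. All max1 and max3 arrays were above the intact arrays, and the max2 arrays spread from below to above them. The polymerase gene rpoA read 12.33, 12.41 and 11.76 in max1, 11.96, 12.03 and 11.92 in max2 and 12.37, 12.20 and 11.69 in max3. Only in max2 did all 3 arrays lie above the intact arrays. The differences were 0.74 ± 0.24, 0.54 ± 0.24 and 0.66 ± 0.24 in max1, max2 and max3 (adjusted p = 0.115, 0.347 and 0.198, and 0.00353, 0.0239 and 0.012 with the replicate block, under which rpoC1 also passed in max3 with 0.0436). The rpoC1 arrays read 10.88, 11.04 and 10.52 in max1, 10.25, 10.55 and 10.73 in max2 and 11.15, 11.41 and 10.44 in max3, and overlapped the intact arrays in each mutant. The rpoC2 arrays, at 9.79, 9.98 and 9.29, 9.04, 9.42 and 9.79 and 10.15, 9.90 and 9.03 in the same order, also overlapped them. For rpoB the values were 3.60, 3.64 and 3.63 in max1, 3.09, 3.64 and 3.62 in max2 and 4.45, 3.67 and 3.79 in max3. Only the max3 arrays of rpoB lay above the intact arrays, and its difference there did not pass (0.40 ± 0.27, adjusted p = 0.553).

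Among the ribosomal protein genes, rps19 came nearest to a call in max1. Its arrays read 12.54, 12.32 and 12.10 in max1, 11.51, 12.13 and 12.28 in max2 and 12.53, 12.47 and 12.08 in max3. The max1 and max3 arrays were above the intact arrays, and the differences were 0.65 ± 0.19 and 0.69 ± 0.19 (adjusted p = 0.0768 and 0.0793). In rps16 the mutants read 7.02, 7.57 and 6.85, 5.80, 6.80 and 6.90 and 7.12, 7.30 and 6.80 (max1, max2, max3), and in rps18 11.81, 12.08 and 11.54, 11.05, 11.63 and 11.46 and 11.80, 11.96 and 11.39. Each mutant overlapped the intact arrays for both genes, and max2 replicate 1 was the lowest array of the study. The same array was the lowest for rps15, which read 8.96, 9.03 and 8.22 in max1, 7.47, 8.79 and 9.32 in max2 and 9.16, 9.33 and 8.38 in max3. The rps14 arrays, at 2.16, 2.17 and 2.12, 2.17, 2.15 and 2.18 and 2.16, 2.40 and 2.16, stayed near background, with max3 replicate 2 the highest of the 21.

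In the large-subunit genes the mutant arrays of rpl14 read 8.60, 8.86 and 8.62 (max1), 8.49, 8.16 and 8.68 (max2) and 9.51, 8.90 and 8.26 (max3). The max1 and max3 arrays were all above the intact arrays, and neither difference passed (0.73 ± 0.33 and 0.93 ± 0.33, adjusted p = 0.3 and 0.196). For rpl16 they read 9.58, 9.62 and 9.46, 9.22, 9.21 and 9.72 and 9.98, 9.77 and 9.15, and for rpl22 12.39, 12.22 and 12.29, 11.46, 12.21 and 12.27 and 12.57, 12.28 and 12.27, in the same order. All max1 arrays lay above the intact arrays in both genes, and max2 overlapped them. The max3 arrays overlapped the intact arrays in rpl16 and lay above them in rpl22, where the difference did not pass (0.42 ± 0.21, adjusted p = 0.413). The rpl32 arrays were at 12.63, 12.70 and 12.33, 11.67, 12.51 and 12.64 and 12.59, 12.76 and 12.76, with all of max3 above the intact arrays, and the rpl20 arrays at 8.27, 7.86 and 7.34, 7.12, 8.05 and 8.67 and 8.69, 8.40 and 7.69. In rpl20 max2 spread furthest, from below all intact arrays to above all of them. All max3 arrays of rpl20 lay above the intact arrays, and the difference did not pass (0.88 ± 0.37, adjusted p = 0.289).

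In matK the mutants read 13.48, 13.37 and 13.19, 12.67, 13.22 and 13.41 and 13.36, 13.33 and 12.98 (max1, max2, max3), and in clpP 12.91, 12.98 and 12.71, 12.67, 12.80 and 12.92 and 13.12, 13.12 and 12.69. Each mutant overlapped the intact arrays for matK. All 9 mutant arrays of clpP were above the intact arrays, with differences of 0.30 ± 0.13, 0.22 ± 0.13 and 0.40 ± 0.13 that did not pass (adjusted p = 0.283, 0.581 and 0.143). The accD arrays read 9.85, 9.77 and 9.66 in max1, 9.23, 9.78 and 9.80 in max2 and 10.84, 10.03 and 9.74 in max3, with max3 replicate 1 the highest of the study. Each mutant overlapped the intact arrays. The values of cemA were 10.97, 11.55 and 10.93, 11.03, 10.68 and 10.95 and 11.66, 11.55 and 10.44, those of ycf4 9.79, 10.32 and 9.63, 9.60, 9.48 and 9.72 and 10.31, 9.99 and 9.23, and those of ycf3 7.99, 8.05 and 7.58, 6.80, 7.83 and 8.13 and 8.49, 8.39 and 7.53, in the same order. In all 3 genes every mutant overlapped the intact arrays, and max3 replicate 3 was the lowest max3 array.

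The arrays of one mutant differed among themselves. The median over the 26 genes, relative to the intact mean, was 0.52, 0.59 and 0.29 in the max1 arrays, -0.18, 0.22 and 0.50 in the max2 arrays and 0.85, 0.68 and 0.16 in the max3 arrays. The max2 mean was below the mean of max1 and max3 for all 26 genes, with a median of -0.31, and for 8390 of all 22746 probe sets. Among the 26 genes 0 differences passed with limma and 5 had an unadjusted p below 0.05, while 0.171% of all probe sets were called and 4.7% had such an unadjusted p. Without max2 replicate 3, 1 gene (ccsA) passed. Between max1 and max3 0 genes passed and 0 had an unadjusted p below 0.05, with 0.361% of all probe sets called and 6.0% with such an unadjusted p.

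**Figure D4:**
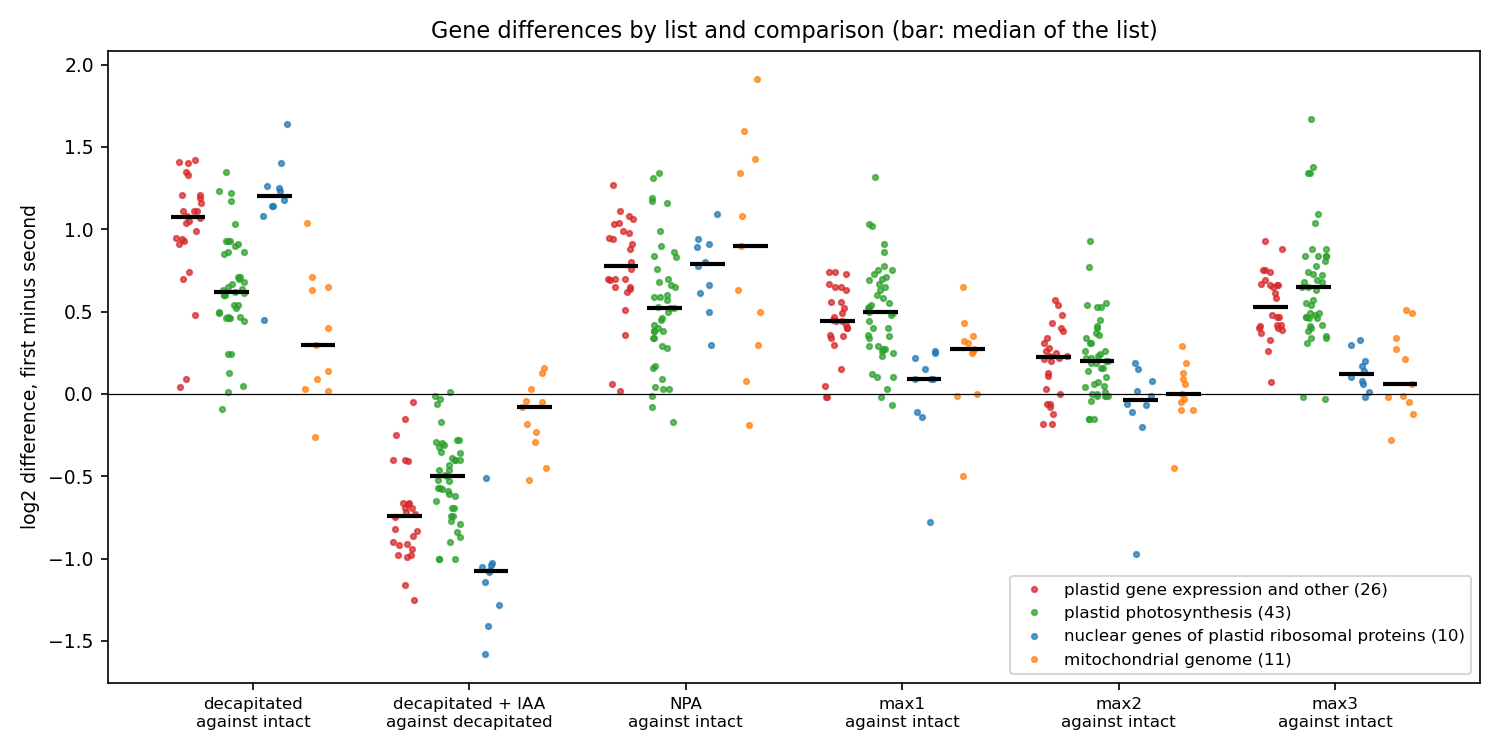
Log2 differences of single genes (dots) and their median (bars) in 6 comparisons, for the 26 genes, the 43 photosynthesis genes of the plastid, 10 nuclear genes of plastid ribosomal proteins and 11 mitochondrial genes. The medians after decapitation are 1.07, 0.62, 1.20 and 0.30 in this order, and those in max3 are 0.53, 0.65, 0.12 and 0.06. The photosynthesis and mitochondrial lists, like the 26 genes, include probe sets near background.

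Of the 43 photosynthesis genes of the same genome 16 rose after decapitation and 27 did not pass (median over the 43 of 0.62), with IAA 10 fell relative to decapitation and 33 did not pass (-0.50), and with NPA 12 rose and 31 did not pass (0.52). In the mutants 1, 0 and 5 of them rose in max1, max2 and max3, with medians of 0.50, 0.20 and 0.65. Of all 22746 probe sets 436, 375 and 227 rose in the same order. Whether the 2 groups of plastid genes differ was not tested. For this list and those below, the shares of all probe sets were 12.8% higher after decapitation, 11.9% lower with IAA and 13.9% higher with NPA. In the 11 mitochondrial genes matched by symbol, which belong to the other organelle genome, 2 rose after decapitation (nad1 and nad9, median 0.30), 0 fell with IAA with limma (1 with an unadjusted p below 0.05, as had 38.6% of all probe sets), and 6 rose with NPA (median 0.90). The largest of these was nad5, at 1.91 ± 0.32 with NPA (adjusted p = 3.4e-04) and 0.30 ± 0.32 after decapitation (adjusted p = 0.54). Of the 7 probe sets of nad1 and the 2 of nad5, only the one with the highest mean was used for each gene.

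Nuclear genes for the other components of the same machineries were taken from lists. Of 40 nuclear genes of plastid ribosomal proteins 10 had a probe set of their own. After decapitation 9 of the 10 rose (median 1.20), with IAA 9 fell relative to decapitation (-1.07), and with NPA 9 rose (0.79). The smallest p after decapitation were those of RPL17 (1.26 ± 0.12), RPL19a (1.64 ± 0.16), RPL29 (1.18 ± 0.12) and RPL3 (1.08 ± 0.12), and RPL17 also fell with IAA (-1.04 ± 0.12). The exception in all 3 comparisons was PSRP1 (0.45 ± 0.40 after decapitation, adjusted p = 0.456). In max1, max2 and max3 0 of the 10 passed with limma, 0, 1 and 1 had an unadjusted p below 0.05, and the medians were 0.09, -0.04 and 0.12.

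For the partners of the other plastid genes few nuclear genes had a probe set that names them alone in the annotation used, and probe sets without a name there may hold others. Of 14 genes for plastid RNA processing 3 had one, and CP29B and CP33B, both RNA-binding proteins of the plastid, rose after decapitation (0.86 ± 0.19 and 1.04 ± 0.19), fell with IAA (-0.81 ± 0.19 and -0.91 ± 0.19) and rose with NPA (0.71 ± 0.19 and 0.74 ± 0.19), while the splicing factor gene CAF1 differed by 0.55 ± 0.26 after decapitation (adjusted p = 0.14). Of 13 nuclear genes of the Clp protease 4 had one. CLPP4, CLPT1 and CLPT2 rose after decapitation (0.67 ± 0.09, 0.56 ± 0.08 and 0.65 ± 0.12) and fell with IAA (-0.46 ± 0.09, -0.30 ± 0.08 and -0.42 ± 0.12), and with NPA only CLPT1 of the 4 rose (0.34 ± 0.08). CCS1, whose product works with that of ccsA, rose after decapitation (0.91 ± 0.31, adjusted p = 0.0399), as did CCDA (1.04 ± 0.20), which acts in the same maturation of cytochromes. CCDA fell with IAA (-1.13 ± 0.20) and rose with NPA (0.66 ± 0.20). CCS1 passed neither with IAA (-0.83 ± 0.31, adjusted p = 0.064) nor with NPA (0.14). The 1 gene with such a probe set of 20 for nuclear partners of the plastid polymerases, the phage-type polymerase RPOTmp, was close to background and differed by 0.32 ± 0.18 after decapitation (adjusted p = 0.223). None of the 4 nuclear genes of the acetyl-CoA carboxylase and of the 8 chloroplast regulators listed was named alone by a probe set, and these genes were not analysed here.

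Of the markers of other tissues that were looked for, 5 were named alone by a probe set. Of 10 leaf markers 2 were, RCA, the Rubisco activase gene, which differed by 0.94 ± 0.42 after decapitation (adjusted p = 0.122), and LHCB4.2, a light-harvesting gene, which differed by -0.12 ± 0.26 (adjusted p = 0.751). The 1 named marker each of guard cells (FAMA), the shoot apex (CLV3) and the root (EXPA7) had group means of about 2, near background, in intact and decapitated plants, and 0 of 4 xylem and 0 of 4 phloem markers were named alone by a probe set. The part of leaf tissue in the results was not tested.

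Most of the 26 genes varied together, but not every pair did. Over the 21 arrays the median correlation between 2 of them (325 pairs) was 0.75, and after subtraction of group means it was 0.56. The lowest pair was at 0.07 over the arrays and at -0.34 (rpoB and rps14) after that subtraction. No such median was taken over all probe sets. These arrays share groups and replicate numbers, so the values only describe them. The median correlation with the 43 photosynthesis genes was 0.60. The least alike over the 21 arrays were accD and rps14, each with a median of 0.37 with the others, and rps14 was near background. After subtraction of group means rpl36 had the lowest median (0.17), with rps14 at 0.21 and accD at 0.46. Along the plastid genome 23 of the 26 genes lie in 7 runs of 2 or more neighbours that none of the 43 photosynthesis genes interrupts. The closest pair after subtraction of group means was that of the neighbours ycf4 and cemA (r = 0.96), followed by rpl20 and ycf3, which are not neighbours (0.92), the neighbours rpoC1 and rpoC2 (0.92) and the neighbours rpl22 and rps3 (0.91). Members of one run could also differ, since clpP rose by 0.48 and rps18 by 1.21 after decapitation in the run of rpl33, rps18, rpl20 and clpP. Runs follow gene order only, without regard to strand, so their members need not be transcribed together. The run of 7 from rpoA to rps19 ranged from 1.07 (rps3) to 1.40 (rpl14), and all 7 rose. The 3 genes outside these runs were rps14, accD and rps15, and none of them passed after decapitation. Of these, rps14 was near background, and all decapitated arrays of rps15 lay above all its intact arrays. Inside the runs rpl20, cemA, ycf3 and ycf4 did not pass either. The order holds the 26 and the 43 genes only, so a neighbour left out, such as ycf1, does not count in a run.

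**Figure D5:**
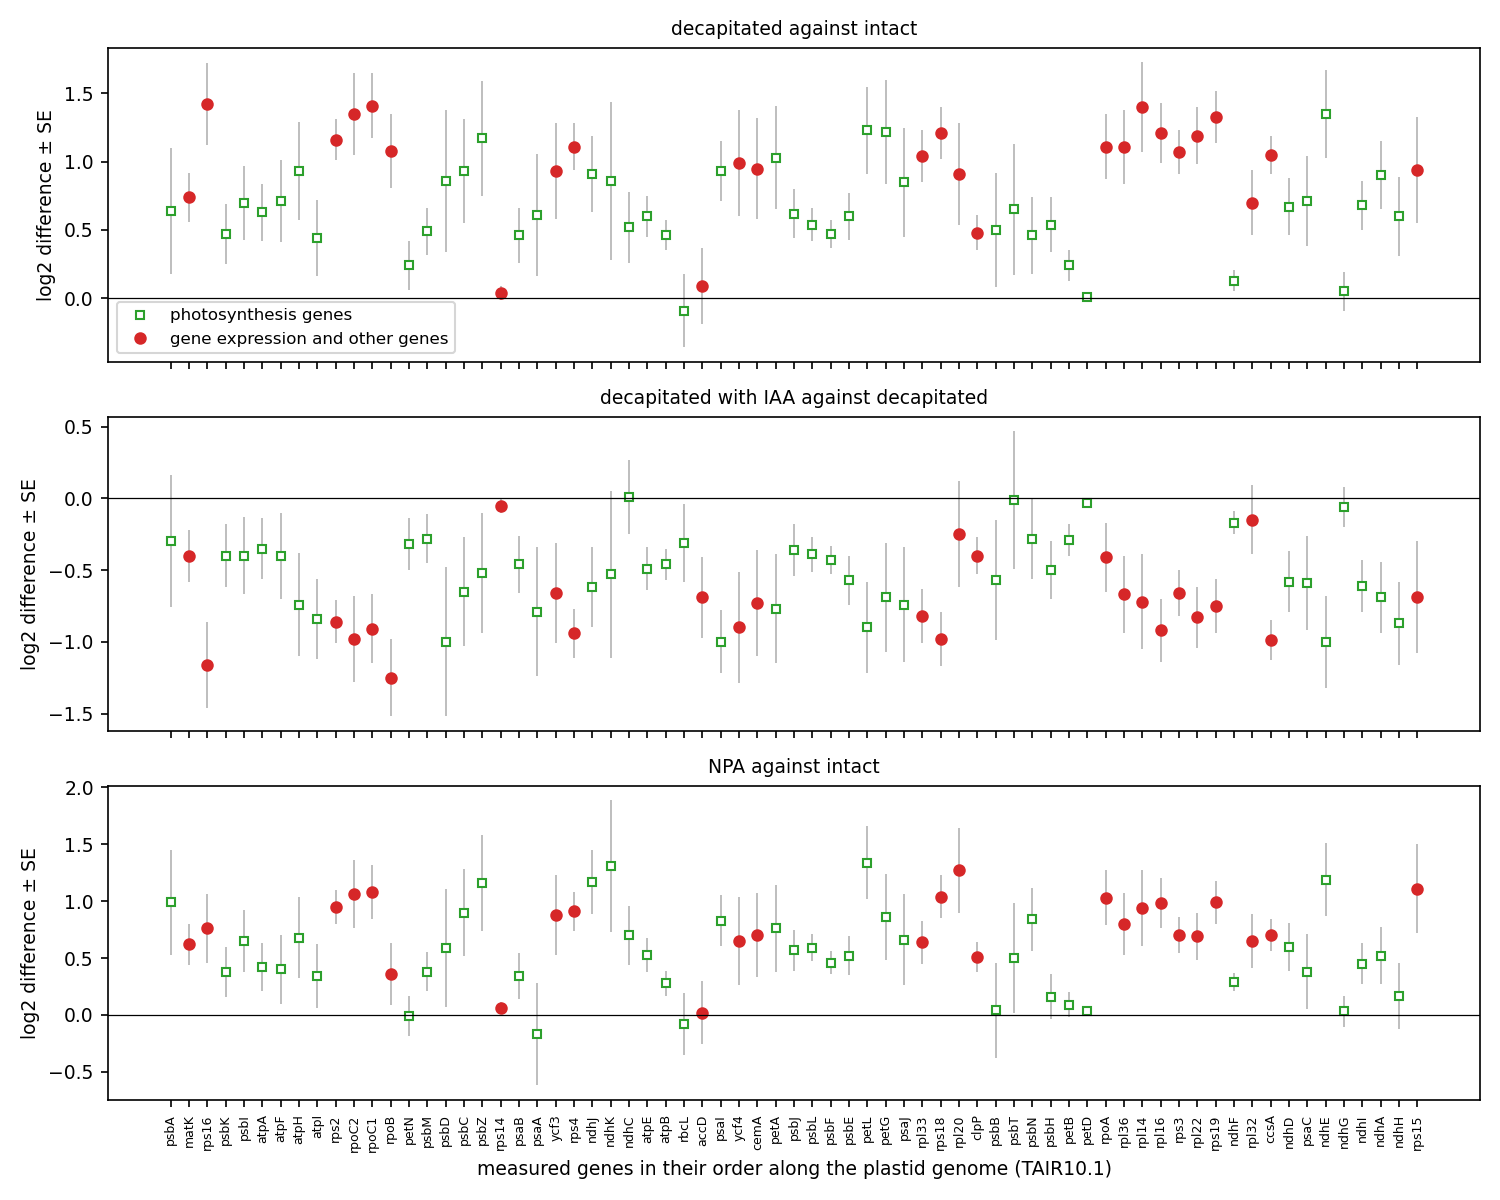
Log2 difference and standard error of each plastid gene of both lists, in its order along the plastid genome (TAIR10.1), in 3 comparisons; filled red dots are the 26 genes, open green squares the 43 photosynthesis genes. The 7 red dots from rpoA to rps19 lie between 1.07 and 1.40 in the upper panel, and accD, next to rbcL, is at 0.09.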

How the data were processed

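Hypocotyl RNA was hybridised to 21 ATH1 arrays, each from 4 µg of total RNA, per the labels' protocols. The authors deposited log2 values per probe set. The submitters' processing notes name RMA, GCRMA and R 3.2.2, and what RMA and GCRMA were each used for is not given in the sources used here. No further scaling or filter was applied. After removal of 64 controls from the 22810 probe sets, 22746 entered the tests. The annotation names 1 gene for 13513, several for 503 and none for 8730, and 13436 of the first matched the TAIR10.1 reference by identifier. Mitochondrial genes were matched by symbol. No genome build is given for the array annotation, and no coordinates or sequences are printed.

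Group means of all 21 arrays were fitted with limma 3.58.1 in R 4.3.3 (14 residual and 1.03 prior degrees of freedom), in 11 comparisons with Benjamini-Hochberg adjustment within each, at 0.05. The script was tested on simulated data. The labels call the 3 samples of a group biological replicates and say that the treatments of one replicate were done together, so replicate numbers pair the samples. After subtraction of group means, same-numbered arrays correlated with a median of 0.361 (0.427 for number 1, 0.127 for number 2, 0.401 for number 3), and arrays with unequal numbers with -0.123. Alternatives were the replicate number as a block, a model holding only the arrays of the groups in question, 2 other scalings, a filter at a mean of 3.5, an intensity trend, array weights, only probe sets with 1 gene, and leaving out single arrays. Genes given array by array were all rpo and other genes and, of each ribosomal group, the 3 largest and 2 smallest differences after decapitation. Genes outside the 26 are up to 4 with the smallest p per list. The members, lists and tests were chosen with earlier results of these data known.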

Additional observations from a re-analysis of the deposited data

Results flagged for a closer look

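Of the plastid genes that were left out because their probe sets name several gene entries, 5 rose after decapitation: rpl2 (0.63 on the log2 scale), rpl23 (0.85), rps12 (0.82 and 1.02 in its 2 probe sets), rps7 (0.93) and ycf1 (0.95), with adjusted p from 6.8e-04 to 0.0369 in limma. The entries named by each of these probe sets are 2 of the same gene, not of different genes. They are listed because the comparisons of the 26 genes do not use them. Relative to decapitation rpl2 (-0.45), rpl23 (-0.72), rps7 (-0.85) and 1 of the rps12 probe sets (-0.87) fell with IAA, while ycf1 (-0.53, adjusted p = 0.0548) and the other rps12 probe set (-0.78, adjusted p = 0.0523) did not pass. With NPA rpl2 (0.40), rps7 (0.88), ycf1 (0.78) and 1 rps12 probe set (0.84) rose relative to intact plants. The ycf2 probe set had group means from 2.38 to 2.46, near background, and a difference of 0.08 after decapitation (adjusted p = 0.111). Groups of 3 arrays were too small to be searched for outlying samples.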

How the results depend on the processing

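Of 58 calls of single genes, 39 were kept under every alternative, 19 were lost under at least 1 and 0 changed direction. Of all combinations of these calls with an alternative, 739 of 812 kept the call. With the replicate block 1 gene each passed in IAA against intact, max1 and max2, and 3 in max3. The block ended no call. With only the groups compared 11 rose with NPA and 0 in max3, where the model holds fewer arrays. Subtraction of array medians gave 13 in NPA against IAA, and it moved the median of all probe sets by 0.11 (decapitation), 0.13 (NPA) and 0.10 (NPA against IAA). Array weights gave 4 each in max1 and max3. For these scalings and weights the cause was not tested. Beside the main fit, the share of all probe sets called was counted only with array medians subtracted. Gains and losses under the other alternatives are therefore not set against the array. Leaving out single arrays gave 17 to 20 genes for decapitation, 11 to 14 for IAA against decapitation, 10 to 17 for NPA, 4 to 6 for NPA against IAA, 0 to 5 for max3, and 0 to 1 for both IAA against intact (1 without intact replicate 2) and max2 against the mean of max1 and max3 (1 without max2 replicate 3). The other counts stayed at 0. The low signal of rps14, and in part of rpoB, limits what could be measured. Since each gene has 1 probe set, averaging probe sets changed nothing.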
